A study of Mus musculus with 8 samples.

Results

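The genes described here encode the enzymes that add or remove methyl and acetyl groups on histones, the enzymes that methylate DNA or oxidise methylated DNA, and the ATP-driven remodellers that move nucleosomes. They were chosen by gene symbol alone, with no measured value used in the rule, although earlier results of these data were known when it was set. The rule took the rows of the deposited table whose symbol starts with Kdm and a digit, Kmt2, Kmt5, Setd, Hdac and a digit, Dnmt, Smarc or Arid1, together with Ezh1, Ezh2, Suz12, Eed, Sirt1 to Sirt7 and Tet1 to Tet3. This gave 82 of the 24630 genes in the table, 80 enzymes or subunits and 2 non-coding rows, the pseudogene Smarca5-ps and the antisense transcript Dnmt3aos. They were measured by RNA sequencing in satellite cells, the stem cells that reside in skeletal muscle, of 4 old male C57BL/6 mice aged 22 months and 4 young male C57BL/6 mice aged 4 months. No mouse carried an allele or received an agent that the labels name, and each library came from a single animal. The cells were sorted from limb muscle as CD45-, CD31-, Sca1- and VCAM+ and frozen without culture. The study asks which transcripts differ between old and young stem cells in the quiescent state.

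Histone methyltransferases of the KMT2 family write methylation of H3K4 at promoters and enhancers, which accompanies active transcription, and polycomb repressive complex 2 (PRC2) writes methylation of H3K27, which accompanies silencing. Demethylases remove methyl groups from histones, deacetylases remove acetyl groups, and TET dioxygenases oxidise methylated DNA. The state of a gene thus reflects writers and erasers together. In mouse muscle stem cells PRC2, histone deacetylases and SWI/SNF remodellers are known for controlling when the genes of muscle differentiation become active.

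Values are in RPKM, reads per kilobase of exon and per M reads (M, the SI prefix mega), as deposited. Reads per gene were recovered from the deposited values and ranged from 20.1 to 24.9 M in the old and from 1.91 to 6.56 M in the young libraries, so the young libraries were all shallower than the old. In a gene with 1 kb of exons, 3 reads stood for 0.157 to 0.181 RPKM in the old and 0.403 to 0.959 RPKM in the young libraries, a limit that covers counting error only. The library size behind the deposited values was 0.678 to 0.849 times the reads in genes in the old and 1.14 to 1.64 times in the young libraries. Fold changes and calls are therefore given on 2 scales, the deposited scale and library totals, where each library is divided by its own reads in genes so that a difference is a difference in the share of reads. Olfactory and vomeronasal receptor genes, which are silent in muscle (1411 genes), averaged 0.0536 ± 0.00955 RPKM in the old libraries and 0.362 ± 0.178 RPKM in the young libraries (SD, n = 4 each). On library totals 4 of the 5 listed tenocyte markers were tested, and all 4 were higher in old animals. The untested Scx averaged 0.294 RPKM in old and 0.371 RPKM in young libraries as deposited. The 5 tenocyte markers summed on library totals to 139 to 413 RPKM in old and 53.5 to 85.4 RPKM in young libraries. Of 8 immediate early genes 6 were lower on library totals. Of the 8 muscle stem cell markers 1 was higher and 4 were lower on library totals, where they summed to 2366 to 3193 RPKM in old and 2653 to 3587 RPKM in young libraries, against sums as deposited of 2978 to 4710 RPKM in old and 1837 to 3112 RPKM in young libraries. The 5 endothelial markers summed on library totals to 31.1 to 68.1 RPKM in old and 70.04 to 80.6 RPKM in young libraries, which do not overlap, and as deposited to 45.8 to 81.7 RPKM in old and 49.3 to 63.3 RPKM in young libraries, which do. The 5 fibro-adipogenic markers overlapped on library totals, at 515 to 1180 RPKM in old and 497 to 728 RPKM in young libraries, and lay apart as deposited, at 760 to 1389 RPKM in old and 405 to 564 RPKM in young libraries. Of these 5 markers 1 was higher and 1 lower on library totals. Most of the sum was Dcn, which averaged 1069 RPKM in old and 358 RPKM in young libraries as deposited. Lum and Ly6a also had higher means in old libraries. Col1a1 averaged 27.6 RPKM in old and 50.6 RPKM in young libraries, and Pdgfra 2.78 and 3.08 RPKM. The 5 leukocyte markers overlapped on both scales, at 5.42 to 10.5 RPKM in old and 8.37 to 14.3 RPKM in young libraries on library totals. The part of these cells and of the low-level signal in the results below was not tested. In RNA from a whole sorted population, fewer cells of a kind and less RNA per cell cannot be told apart.

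In old muscle stem cells most of the better expressed chromatin genes stood higher on the deposited scale, as most genes did, and very few took a larger share of the reads. Of the 34 members that averaged at least 5 RPKM, 26 were called higher and 0 lower in old animals on the deposited scale (limma, Benjamini-Hochberg adjusted p under 0.05 over all 5703 genes at that level). The same fit called 68.1% of all 5703 genes higher and 1.12% lower, so the members' share of 76.5% is near the background. On library totals 0 of the 34 were called higher and 4 lower, Kdm1b, Tet2, Smarcb1 and Smarca2, where 12.3% of all genes were higher and 12.7% lower. At an unadjusted p under 0.05 limma gave 1 higher and 6 lower members there, beside 18.6% and 19.6% of all genes. Limma-voom on the recovered reads called 0 higher and 4 lower members, and its share of all genes is not given here. The median log2 fold change of the 34 members was 0.52 on the deposited scale, beside 0.64 for all 5703 genes, and -0.11 on library totals, beside -0.01. Without old library 4 the members called on the deposited scale were 15. On library totals 1 member was called without old library 1 or young library 3, and 2 without old library 2 or young library 4. The share of all genes called with a library left out is not given here.

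Many chromatin genes have long transcripts and stand at a few RPKM, so the same model was run on all 11096 genes that averaged at least 1 RPKM, 73 members among them. In that fit 30 members were higher and 1 lower on the deposited scale, where 42.1% of all genes were higher and 5.34% lower. On library totals 1 member was higher and 16 were lower, 21.9% of the 73, where 7.27% of all genes were higher and 22.3% lower. Beside that 7.27%, the 1 higher member was 1.37% of the 73. The medians were 0.39 for the members and 0.36 for all genes on the deposited scale, and -0.18 and -0.19 on library totals. The values of the 4 old and the 4 young libraries did not overlap for 28 members higher and 0 lower in old animals on the deposited scale, where 39.8% and 4.37% of all genes separated in this way. On library totals 2 members, Setd6 and Hdac6, separated with old higher and 19 with old lower, beside 7.84% and 24.8% of all genes. Without old library 4 the deposited scale gave 18 calls among the 73. On library totals 7 members were called without old library 2, 10 without young library 3, and 11 without old library 4 or young library 1. For these fits too the share of all genes is not given here.

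Members averaging at least 5 RPKM are read below from the fit at that level and the 39 members between 1 and 5 RPKM from the wider fit. Across both, 34 of 73 members were higher and 1 lower on the deposited scale, and 1 was higher and 16 were lower on library totals. These counts join 2 fits with different backgrounds. Of the 34 higher members 26 came from the first fit, beside 68.1% of all genes, and 8 of 39 from the wider. Of all genes at 1 to 5 RPKM in the wider fit 18.5% were higher and 10.2% lower on the deposited scale. On library totals 1.34% of them were higher and 31.9% lower, beside 1 and 12 of the 39 members. Setd6 was the only member called higher on both scales and Kmt5c the only member called lower on both. A further 15 members were lower on library totals and not called on the deposited scale, and 23 members were called on neither scale. Log2 fold changes are old minus young on the log2(RPKM + 1) scale with the standard error, from 4 old and 4 young libraries, given as deposited and by library total, and adjusted p-values are from limma. The added 1 makes the change of weakly expressed genes look smaller than it is. Values per library are given in the order of libraries 1 to 4 of each group.

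**Figure D1:**
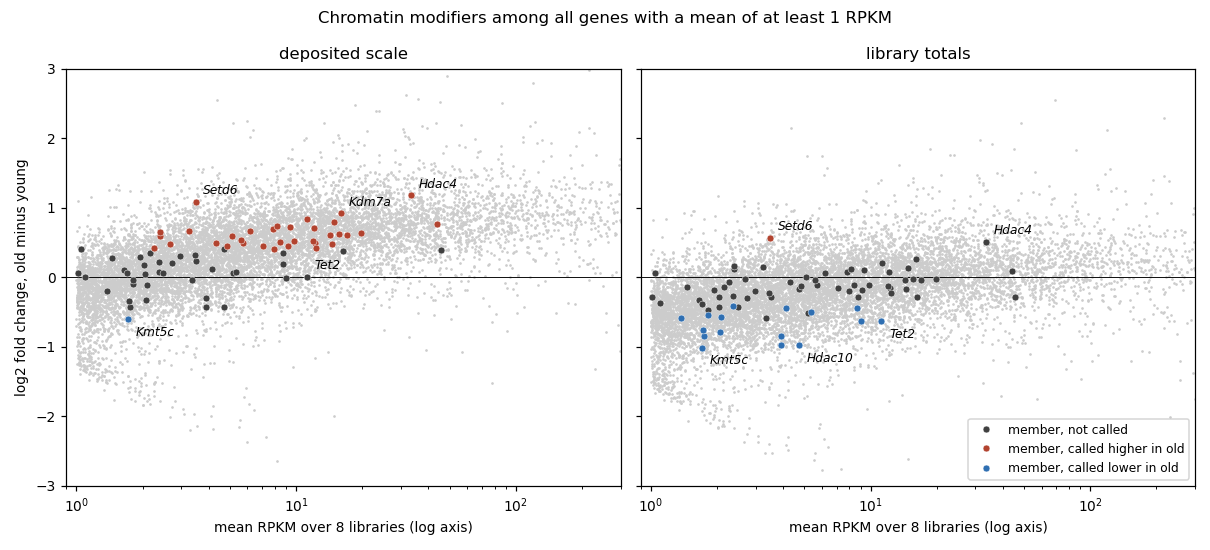
Log2 fold change, old minus young, of each gene that averaged at least 1 RPKM, plotted against its mean RPKM over 8 libraries on a log axis, on the deposited scale (left) and on library totals (right). Grey dots are all 11096 genes and larger dots the 73 members, coloured by their call. On the deposited scale 34 members are called higher and 1 lower, and on library totals 1 is called higher and 16 lower, within the cloud of all genes.

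The flavin-dependent LSD demethylases, which remove methyl groups from H3K4, gave different calls. Kdm1a (LSD1) had 9.05, 10.8, 6.9004 and 13.2 RPKM in the old libraries, against 5.903, 5.12, 6.14 and 5.57 RPKM in the young libraries. All 4 old libraries were above all 4 young libraries on that scale. Limma gave Kdm1a a log2 fold change of 0.69 ± 0.19 as deposited (adjusted p = 0.00323) and 0.08 ± 0.17 by library total (adjusted p = 0.768). Kdm1b (LSD2) had 7.59, 8.95, 9.27 and 8.91 RPKM in the old libraries, against 9.59, 4.37, 13.5 and 9.95 RPKM in the young libraries, so that the young libraries spread on both sides of the old. Kdm1b fell as a share of reads, with a log2 fold change of -0.63 ± 0.19 by library total (adjusted p = 0.0325) against -0.01 ± 0.23 as deposited (adjusted p = 0.958), and the call was lost without any of old libraries 1, 2 or 4 or young libraries 1, 3 or 4 (highest adjusted p = 0.0907, without young library 3).

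Among the Jumonji demethylases of H3K9, Kdm4c took a smaller share of reads in old cells, and the other 4 tested members were not called on library totals. Kdm3a, which removes mono- and dimethylation of H3K9 and had the highest level of this class, stood at 20.5, 21.9, 20.005 and 20.02 RPKM in the old libraries, against 13.3, 9.83, 16.5 and 13.8 RPKM in the young libraries. The old libraries lay close together and above all young ones. For Kdm3a the log2 fold change was 0.61 ± 0.19 as deposited (adjusted p = 0.00679) and -0.05 ± 0.11 by library total (adjusted p = 0.790). Kdm4c (GRCm38 chromosome 4, 74242497 to 74405860, plus strand), which acts on trimethylated H3K9, had 3.06, 2.81, 4.54 and 2.35 RPKM in the old libraries, against 4.99, 3.35, 5.63 and 4.505 RPKM in the young libraries. On the deposited scale the groups overlapped through old library 3 and young library 2. Divided by library totals, Kdm4c had 2.602, 1.91, 3.78 and 1.87 RPKM in the old libraries, against 6.12, 5.48, 6.39 and 5.19 RPKM in the young libraries, with all old libraries below all young ones. The log2 fold change of Kdm4c was -0.43 ± 0.18 as deposited (adjusted p = 0.0670) and -0.97 ± 0.18 by library total (adjusted p = 0.00480), and the call on library totals held with each library left out in turn (highest adjusted p = 0.0179). Its paralogue Kdm4b had 4.84, 3.96, 4.903 and 7.66 RPKM in the old libraries, against 5.504, 4.77, 5.705 and 4.05 RPKM in the young libraries, with old library 4 above and old library 2 below all young libraries. Kdm4b had 0.06 ± 0.19 as deposited (adjusted p = 0.804) and -0.52 ± 0.21 by library total (adjusted p = 0.0892) and was not called. Kdm3b (log2 fold change 0.66 on the deposited scale, called higher, and 0.07 on library totals) and Kdm4a (0.11 and -0.33, not called) complete the tested members.

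The H3K4 demethylases of the KDM5 family were called higher on the deposited scale in 2 of 4 members and were not called on library totals in any. Kdm5a, with the highest level in the family, had 16.6, 18.05, 15.9 and 17.6 RPKM in the old libraries, against 14.2, 9.17, 11.7 and 13.2 RPKM in the young libraries. Young library 1 came closest to the old range. Kdm5a had a log2 fold change of 0.48 ± 0.18 as deposited (adjusted p = 0.0230) and -0.17 ± 0.12 by library total (adjusted p = 0.309), and its call on the deposited scale was lost without any of old libraries 2 or 4 (highest adjusted p = 0.0554, without old library 4). The X-linked Kdm5c was close to it, with 0.49 on the deposited scale, a call lost without old library 4 (adjusted p = 0.0602), and -0.15 on library totals. Kdm5b had 3.44, 2.85, 2.703 and 4.17 RPKM in the old libraries, against 3.02, 4.27, 3.07 and 3.33 RPKM in the young libraries, and young library 2 was the highest of all 8. Limma gave Kdm5b -0.05 ± 0.16 as deposited (adjusted p = 0.823) and -0.58 ± 0.21 by library total (adjusted p = 0.0541). Kdm5d, the copy on the Y chromosome, was present in all 8 libraries of these male mice at 0.971, 1.15, 0.743 and 1.55 RPKM in the old libraries, against 1.08, 1.03, 1.11 and 1.14 RPKM in the young libraries. The old libraries of Kdm5d spread more widely than the young, and its log2 fold change was 0.00 ± 0.17 as deposited (adjusted p = 0.990) and -0.37 ± 0.17 by library total (adjusted p = 0.131).

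Of the demethylases grouped with H3K36, Kdm2a and Kdm2b were higher on the deposited scale and Kdm8 was lower on library totals. Kdm2a, which removes dimethylation of H3K36 and binds unmethylated CpG sites, had 9.198, 9.88, 9.396 and 11.9 RPKM in the old libraries, against 6.798, 6.75, 6.73 and 6.82 RPKM in the young libraries. The young libraries lay close together, and all old libraries lay above them. Kdm2a had a log2 fold change of 0.51 ± 0.17 as deposited (adjusted p = 0.0110) and -0.11 ± 0.15 by library total (adjusted p = 0.607). Its paralogue Kdm2b had 0.41 ± 0.14 as deposited (adjusted p = 0.0255), a call lost without any of old libraries 1, 2 or 4 (highest adjusted p = 0.0628, without old library 2), and -0.07 ± 0.17 by library total (adjusted p = 0.768). The Jumonji hydroxylase Kdm8 had 1.55, 1.71, 2.11 and 1.44 RPKM in the old libraries, against 2.66, 1.204, 1.97 and 1.92 RPKM in the young libraries, with young libraries 1 and 2 at the top and the bottom of all values. Kdm8 fell as a share of reads, with -0.54 ± 0.17 by library total (adjusted p = 0.0369) against -0.10 ± 0.17 as deposited (adjusted p = 0.647), and the call was lost without any of old libraries 1, 2 or 4 or young libraries 1, 3 or 4 (highest adjusted p = 0.0947, without old library 2).

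The erasers of H3K27 methylation were called higher on the deposited scale in all 3 members and on library totals in none. Kdm6b (JMJD3) had 29.1, 19.4, 17.8 and 31.9 RPKM in the old libraries, against 17.5, 15.6, 15.001 and 12.2 RPKM in the young libraries. Old libraries 1 and 4 stood apart from the others, while old library 3 lay next to young library 1. Kdm6b had a log2 fold change of 0.64 ± 0.21 as deposited (adjusted p = 0.0101) and -0.02 ± 0.23 by library total (adjusted p = 0.957), and the call was lost without old library 4 (adjusted p = 0.0563). Kdm7a, which acts on dimethylated H3K9 and H3K27, had 24.01, 25.7, 13.7 and 22.04 RPKM in the old libraries, against 10.8, 12.8, 7.56 and 11.6 RPKM in the young libraries. Every old library was above every young library, with old library 3 the lowest of the old. For Kdm7a limma gave 0.92 ± 0.21 as deposited (adjusted p = 0.000808) and 0.27 ± 0.24 by library total (adjusted p = 0.431), and the call on the deposited scale held with each library left out in turn (highest adjusted p = 0.00566). Kdm6a (UTX), encoded on the X chromosome, had 5.19, 6.25, 4.28 and 4.98 RPKM in the old libraries, against 4.23, 2.47, 3.95 and 3.07 RPKM in the young libraries. The old minimum was just above the young maximum, and the log2 fold change of Kdm6a was 0.49 ± 0.17 as deposited (adjusted p = 0.0274) and -0.07 ± 0.14 by library total (adjusted p = 0.725). That call was lost without any of old libraries 1, 2 or 4 or young libraries 2 or 4 (highest adjusted p = 0.0846, without old library 2).

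The KMT2 and SETD1 methyltransferases, catalytic subunits of complexes that methylate H3K4, gave 1 call on each scale. Kmt2e, a family member without established methyltransferase activity, had the highest level, 20.2, 18.3, 16.1 and 19.6 RPKM in the old libraries, against 14.3, 11.998, 16.6 and 13.5 RPKM in the young libraries. Young library 3 reached into the old range. Kmt2e was not called, with 0.37 ± 0.18 as deposited (adjusted p = 0.0673) and -0.28 ± 0.13 by library total (adjusted p = 0.135). Kmt2c, which with its partners monomethylates H3K4 at enhancers, had 4.56, 3.85, 4.36 and 4.55 RPKM in the old libraries, against 4.21, 3.15, 4.61 and 3.81 RPKM in the young libraries. The groups were nearly equal on the deposited scale. On library totals all old libraries of Kmt2c lay below all young ones, with a log2 fold change of -0.44 ± 0.14 by library total (adjusted p = 0.0342) against 0.11 ± 0.14 as deposited (adjusted p = 0.520), and the call was lost without any of old libraries 2, 3 or 4 or young libraries 1 or 3 (highest adjusted p = 0.0921, without old library 2). Kmt2a (MLL1) was the member called higher on the deposited scale, with 0.73 ± 0.17 as deposited (adjusted p = 0.00102) and 0.12 ± 0.15 by library total (adjusted p = 0.610). The other 3 tested members, Kmt2b, Kmt2d and Setd1b, had log2 fold changes of -0.13, -0.29 and -0.29 on library totals and were not called on either scale.

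The other SET domain proteins held the largest movements among the methyltransferases tested here, in both directions. Setd2, which trimethylates H3K36 in transcribed genes, had 10.2, 11.4, 8.73 and 12.8 RPKM in the old libraries, against 7.18, 7.79, 7.39 and 7.86 RPKM in the young libraries. All old libraries were above all young ones on this scale. Setd2 had a log2 fold change of 0.45 ± 0.17 as deposited (adjusted p = 0.0250) and -0.18 ± 0.15 by library total (adjusted p = 0.421), and the call was lost without any of old libraries 2 or 4 or young library 1 (highest adjusted p = 0.0878, without old library 4). Kmt5c (GRCm38 chromosome 7, 4740115 to 4747514, plus strand), which trimethylates H4K20 in heterochromatin, had 0.924, 1.04, 0.969 and 1.48 RPKM in the old libraries, against 3.405, 1.28, 3.09 and 1.52 RPKM in the young libraries. Young libraries 1 and 3 were far above the rest, and old library 4 lay within the young range. Kmt5c fell on both scales, with -0.61 ± 0.22 as deposited (adjusted p = 0.0362) and -1.01 ± 0.22 by library total (adjusted p = 0.00899). The call on library totals held with each library left out in turn (highest adjusted p = 0.0293), and that on the deposited scale was lost without any of old libraries 1, 2 or 3 or young libraries 1 or 3 (highest adjusted p = 0.123, without young library 1). Both calls of Kmt5c were lost with the level of the silent receptor genes subtracted (limma, adjusted p = 0.187 as deposited and 0.0583 by library total), and the call as deposited also after thinning all libraries to 1 total (adjusted p = 0.0988). Recovered reads of Kmt5c were 63, 70, 74 and 98 reads in the old libraries, against 45, 16, 92 and 40 reads in the young libraries, so young library 2 carried few reads. Kmt5b, which dimethylates the same residue, had 0.49 on the deposited scale, a call lost without old library 1 (adjusted p = 0.0521), and -0.11 on library totals.

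Setdb2 (GRCm38 chromosome 14, 59402009 to 59440884, minus strand), an H3K9 methyltransferase of the SETDB family, had 1.51, 1.76, 2.08 and 1.51 RPKM in the old libraries, against 1.94, 2.29, 2.95 and 2.49 RPKM in the young libraries. Old library 3 overlapped the lowest young library. On library totals all old libraries of Setdb2 were below all young ones, and its log2 fold change was -0.79 ± 0.16 by library total (adjusted p = 0.00728) against -0.33 ± 0.15 as deposited (adjusted p = 0.0869). That call held with each library left out in turn (highest adjusted p = 0.0246) and was lost after thinning all libraries to 1 total (adjusted p = 0.0556). Its paralogue Setdb1 went the other way on the deposited scale, with 0.54 ± 0.19 as deposited (adjusted p = 0.0136), a call lost without old library 4 (adjusted p = 0.0531), and -0.05 ± 0.17 by library total (adjusted p = 0.870). Setd6 (GRCm38 chromosome 8, 95715881 to 95719010, plus strand), which methylates the NF-kappaB subunit RelA, is given in every library because of its values, after they were seen. It had 4.01, 6.02, 3.72 and 6.83 RPKM in the old libraries, against 1.59, 1.85, 2.33 and 1.603 RPKM in the young libraries, and all old libraries were above all young ones. Setd6 rose on both scales, with a log2 fold change of 1.09 ± 0.18 as deposited (adjusted p = 0.000856) and 0.56 ± 0.18 by library total (adjusted p = 0.0383). The call on library totals was lost without any of old libraries 1, 2 or 4 or young libraries 1, 3 or 4 (highest adjusted p = 0.108, without old library 4) and had an adjusted p of 0.0934 in limma-voom, and young libraries 1 and 2 held 10 and 11 reads of Setd6. Of the other members, Setd4 was higher on the deposited scale (0.48), and Setd3, Setd5, Setd7 and Kmt5a were called on neither, with log2 fold changes of -0.28, -0.30, -0.14 and -0.18 on library totals. The call of Setd4 was lost without any of old libraries 2 or 4 or young libraries 3 or 4 (highest adjusted p = 0.0789, without old library 4).

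PRC2 is built from the scaffold Eed, the subunit Suz12 and either of the methyltransferases Ezh1 and Ezh2. Eed, Suz12 and Ezh1 were higher on the deposited scale, and no core member was called on library totals. Eed had 13.1, 18.7, 15.6 and 13.5 RPKM in the old libraries, against 7.83, 6.76, 11.2 and 10.1 RPKM in the young libraries. All old libraries were above all young ones. Eed had a log2 fold change of 0.71 ± 0.19 as deposited (adjusted p = 0.00258) and 0.08 ± 0.12 by library total (adjusted p = 0.681). Ezh1, the form that prevails in non-dividing cells, had 11.8, 15.7, 15.3 and 13.8 RPKM in the old libraries, against 9.56, 6.101, 13.2 and 10.6 RPKM in the young libraries, with young library 3 inside the old range. Limma gave Ezh1 0.51 ± 0.20 as deposited (adjusted p = 0.0276) and -0.12 ± 0.14 by library total (adjusted p = 0.543), and the call was lost without any of old libraries 2, 3 or 4 or young libraries 1 or 2 (highest adjusted p = 0.0886, without young library 2). Ezh2, the form that prevails in dividing cells, had 3.74, 3.14, 3.58 and 2.98 RPKM in the old libraries, against 2.54, 1.87, 3.54 and 2.33 RPKM in the young libraries. Young library 3 overlapped the old libraries. Ezh2 was not called, with 0.31 ± 0.16 as deposited (adjusted p = 0.131) and -0.20 ± 0.16 by library total (adjusted p = 0.337). The log2 ratio of Ezh1 to Ezh2 averaged 1.79 ± 0.25 in old and 1.58 ± 0.21 in young libraries (SD, n = 4 each), and the groups overlapped (exact two-sided permutation p = 0.257). Suz12 had 0.73 and 0.10 on the deposited scale and library totals.

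**Figure D2:**
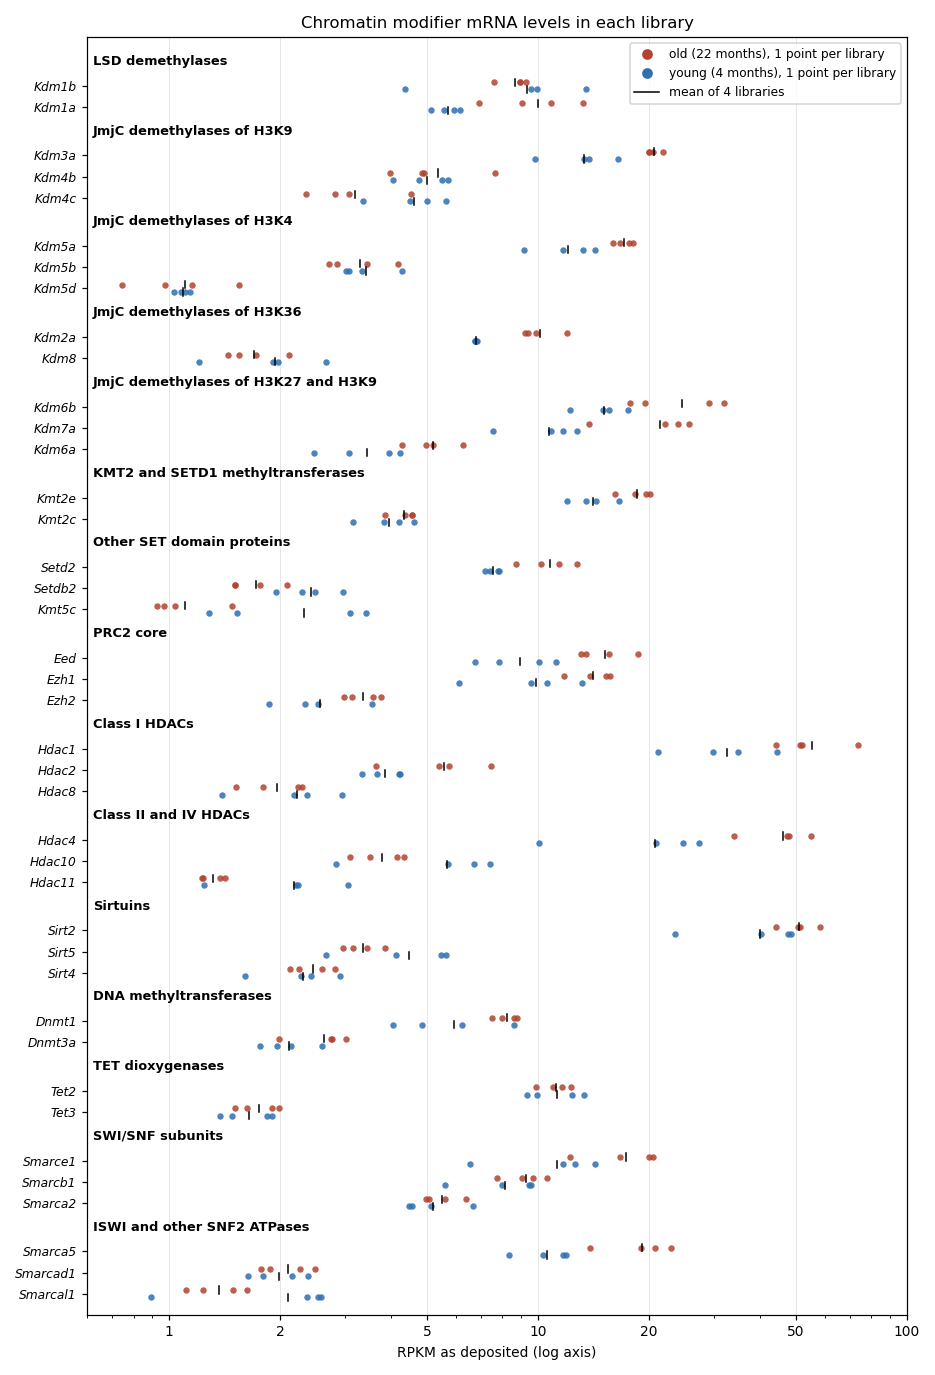
RPKM as deposited, on a log axis, of the members that the naming rule gives in every library, grouped by enzyme class. Red points are the 4 old and blue points the 4 young libraries, and a black bar marks the mean of 4 libraries. The groups lie apart for Hdac4, Kdm7a and Kdm2a and overlap for Tet2, Kmt2c and Tet3.

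Class I histone deacetylases are nuclear enzymes, and Hdac1 and Hdac2 form the catalytic core of the Sin3, NuRD and CoREST corepressor complexes. Hdac1 was the second most abundant member of all 82 and had 44.2, 73.8, 51.3 and 52.1 RPKM in the old libraries, against 29.9, 21.2, 34.8 and 44.4 RPKM in the young libraries. Old library 2 was highest, and young library 4 overlapped the lowest old library. Hdac1 had a log2 fold change of 0.77 ± 0.23 as deposited (adjusted p = 0.00631) and 0.09 ± 0.14 by library total (adjusted p = 0.674). Hdac2 had 5.39, 5.73, 3.64 and 7.45 RPKM in the old libraries, against 3.65, 4.22, 4.201 and 3.34 RPKM in the young libraries. Old library 3 lay inside the young range, and Hdac2 was not called, with 0.41 ± 0.18 as deposited (adjusted p = 0.0749) and -0.17 ± 0.20 by library total (adjusted p = 0.537). Hdac3, the enzyme of the NCoR and SMRT complexes, was higher on the deposited scale (0.62) and had -0.03 on library totals. Hdac8, an X-linked enzyme that acts outside these complexes, had 1.52, 2.23, 1.798 and 2.29 RPKM in the old libraries, against 2.94, 1.39, 2.36 and 2.17 RPKM in the young libraries. The groups overlapped on this scale and separated on library totals, with the old libraries lower. Hdac8 had -0.11 ± 0.18 as deposited (adjusted p = 0.640) and fell as a share of reads (-0.57 ± 0.16 by library total (adjusted p = 0.0235)), a call lost without any of old libraries 1, 2 or 3 or young library 1 (highest adjusted p = 0.0614, without old library 1). Among the class I enzymes Hdac8 made up 2.16 to 2.76% of the summed RPKM in old and 3.47 to 5.89% in young libraries, shares that do not depend on the scaling of a library.

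Class II and IV deacetylases differed widely among themselves. Hdac4 was the most abundant of them in every library, while Hdac10, Hdac11 and Hdac7 took a smaller share of reads in old cells. Hdac4, a class IIa enzyme that shuttles between nucleus and cytoplasm and binds the MEF2 transcription factors of muscle, had 34.02, 47.8, 47.4 and 54.8 RPKM in the old libraries, against 27.3, 10.1, 24.8 and 20.8 RPKM in the young libraries. All old libraries were above all young ones, and young library 2 was the lowest of the 8. Hdac4 had a log2 fold change of 1.18 ± 0.25 as deposited (adjusted p = 0.000464) and 0.51 ± 0.20 by library total (adjusted p = 0.0881). On library totals it had 28.9, 32.4, 39.6 and 43.5 RPKM in the old libraries, against 33.5, 16.5, 28.1 and 23.998 RPKM in the young libraries, and old library 1 lay below young library 1. Without young library 1 the adjusted p on library totals was 0.0471, and with no library left out Hdac4 was not called there. Of the exon bases of Hdac4 (GRCm38 chromosome 1, 91928779 to 92195699, minus strand) 22.4% are shared with Gm26720 on the opposite strand, and reads of the 2 genes cannot be told apart in these unstranded libraries.

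Hdac10 (GRCm38 chromosome 15, 89123307 to 89128700, minus strand), a cytoplasmic class IIb enzyme that deacetylates polyamines, had 3.51, 3.09, 4.34 and 4.15 RPKM in the old libraries, against 6.72, 2.84, 7.39 and 5.69 RPKM in the young libraries. Young library 2 was the lowest of all 8 and the other 3 young libraries the highest. Scaled to library totals Hdac10 had 2.98, 2.095, 3.62 and 3.3004 RPKM in the old libraries, against 8.24, 4.64, 8.397 and 6.55 RPKM in the young libraries, with all old libraries below all young ones. The log2 fold change of Hdac10 was -0.43 ± 0.22 as deposited (adjusted p = 0.124) and -0.98 ± 0.19 by library total (adjusted p = 0.00616), and the call on library totals held with each library left out in turn (highest adjusted p = 0.0197). Hdac11, the only class IV enzyme (GRCm38 chromosome 6, 91156665 to 91174692, plus strand), had 1.23, 1.37, 1.42 and 1.23 RPKM in the old libraries, against 2.202, 1.25, 2.23 and 3.05 RPKM in the young libraries. Young library 2 again lay beside the old libraries. Hdac11 had -0.43 ± 0.18 as deposited (adjusted p = 0.0645) and -0.85 ± 0.16 by library total (adjusted p = 0.00601), and the call on library totals held with each library left out in turn (highest adjusted p = 0.0206). With the level of the silent receptor genes subtracted its limma adjusted p was 0.0592, and the call was lost. Of its exon bases 17.9% are shared with Gm44002 on the opposite strand. Hdac7 had -0.20 ± 0.16 as deposited (adjusted p = 0.319) and -0.59 ± 0.18 by library total (adjusted p = 0.0324), a call lost without any of old libraries 2 or 4 or young library 3 (highest adjusted p = 0.0942, without old library 2). The tubulin deacetylase Hdac6 was higher on the deposited scale, with 0.84 ± 0.18 as deposited (adjusted p = 0.000419) and 0.20 ± 0.11 by library total (adjusted p = 0.190), and Hdac5 was called on neither (0.23 and -0.29). Within this class Hdac4 made up 58.5 to 68.2% of the summed RPKM in old and 39.9 to 55.6% in young libraries. Hdac10 made up 4.33 to 6.03% in old and 11.2 to 14.9% in young libraries, and Hdac11 1.53 to 2.12% and 4.48 to 7.13%. The shares of these 3 enzymes did not overlap between the groups. Those of Hdac7 and Hdac9 did not overlap either and were lower in old libraries, while those of Hdac5 and Hdac6 overlapped. Shares within a class are tied, since a larger share of Hdac4 leaves less for the others. How often such shares separate for other genes is not given here. The part of the low-level signal in the shares of the weaker enzymes was not tested.

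The promoters of Hdac4, Hdac11, Kmt5c and Setdb2 are shown as examples of members whose call on 1 of the scales held with each library left out in turn. Each runs 5′ to 3′ from 250 bases before to 50 bases after the RefSeq start on GRCm38.p6. Capitals mark the GC box (GGGCGG), the CCAAT box (CCAAT) and the E-box CAGCTG on either strand. Of these, the GC box is bound by Sp1 and related factors, the CCAAT box by NF-Y, and an E-box of this form by MyoD.
Hdac4, chr1:92180292-92180591, minus strand: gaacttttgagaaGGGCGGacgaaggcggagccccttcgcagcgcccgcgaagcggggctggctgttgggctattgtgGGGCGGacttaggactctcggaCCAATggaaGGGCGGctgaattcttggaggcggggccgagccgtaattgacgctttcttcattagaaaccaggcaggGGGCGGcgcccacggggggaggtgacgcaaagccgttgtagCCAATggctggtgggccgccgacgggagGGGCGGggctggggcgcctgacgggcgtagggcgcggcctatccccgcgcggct
Hdac11, chr6:91156565-91156864, plus strand: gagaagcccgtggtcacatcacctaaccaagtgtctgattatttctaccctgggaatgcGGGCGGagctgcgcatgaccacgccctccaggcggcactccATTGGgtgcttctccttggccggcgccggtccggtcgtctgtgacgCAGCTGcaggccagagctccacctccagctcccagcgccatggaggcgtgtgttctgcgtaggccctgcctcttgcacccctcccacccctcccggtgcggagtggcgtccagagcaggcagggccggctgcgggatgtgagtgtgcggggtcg
Kmt5c, chr7:4739877-4740176, plus strand: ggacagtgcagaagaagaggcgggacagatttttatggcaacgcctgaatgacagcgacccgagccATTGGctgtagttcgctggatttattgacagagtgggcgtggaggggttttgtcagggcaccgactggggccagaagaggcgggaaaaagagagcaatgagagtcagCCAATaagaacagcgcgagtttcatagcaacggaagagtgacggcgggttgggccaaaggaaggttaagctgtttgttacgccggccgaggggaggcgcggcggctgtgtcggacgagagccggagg
Setdb2, chr14:59440831-59441130, minus strand: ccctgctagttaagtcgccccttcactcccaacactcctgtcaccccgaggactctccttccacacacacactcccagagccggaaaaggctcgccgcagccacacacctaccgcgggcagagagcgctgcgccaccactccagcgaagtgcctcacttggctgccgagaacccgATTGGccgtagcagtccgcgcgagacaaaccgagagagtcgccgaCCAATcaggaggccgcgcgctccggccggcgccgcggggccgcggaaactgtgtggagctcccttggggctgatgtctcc
Hdac4 holds 5 GC boxes and 2 CCAAT boxes, and Hdac11 holds 1 GC box, 1 CCAAT box and 1 E-box. Kmt5c and Setdb2 hold 2 CCAAT boxes each and neither of the other motifs. RefSeq promoters were found for 69 of the 82 members, and 66.7% of these hold a GC box, against 35.9% of the 27025 genes with a promoter in that table. The CCAAT box was found in 37.7% of the members and 37.9% of all genes, and the E-box CAGCTG in 18.8% and 16.1%. The AP-1 site TGACTCA occurred in 7.25% of the members and 5.17% of all genes, and the cyclic AMP response element TGACGTCA in 0 of 69 members and 1.88% of all genes. The median member promoter had 22 CpG sites and 61.3% G and C, against 7 CpG sites and 52.7% over all genes. The 15 members with a promoter that were lower on library totals and the 45 that were not called held a GC box in 66.7% and 68.9% of cases. These are letter matches and not binding sites.

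Sirtuins are deacylases that need NAD+ as a cosubstrate. The mitochondrial Sirt4 and Sirt5 took a smaller share of reads in old cells, and the nuclear Sirt1 and Sirt7 stood higher on the deposited scale. Sirt2, a mostly cytoplasmic deacetylase and by mean level the most abundant of all 82 members, had 44.2, 58.2, 51.3 and 50.7 RPKM in the old libraries, against 40.3, 23.6, 48.3 and 47.6 RPKM in the young libraries. Young library 2 was far below the others, and young libraries 3 and 4 lay inside the old range. Sirt2 was not called, with 0.39 ± 0.23 as deposited (adjusted p = 0.126) and -0.29 ± 0.13 by library total (adjusted p = 0.132), and without young library 2 its adjusted p on library totals was 0.0199. Sirt5, which removes succinyl and malonyl groups from proteins, had 3.43, 2.95, 3.14 and 3.85 RPKM in the old libraries, against 2.66, 5.61, 4.12 and 5.47 RPKM in the young libraries. Young library 1 was the lowest of all 8 and young libraries 2 and 4 the highest. Sirt5 had -0.30 ± 0.19 as deposited (adjusted p = 0.204) and -0.85 ± 0.24 by library total (adjusted p = 0.0238), and the call was lost without old library 2 or young library 4 (highest adjusted p = 0.0701, without old library 2). That call was also lost after thinning all libraries to 1 total (limma, adjusted p = 0.0708) and held with silent receptor genes subtracted (adjusted p = 0.0487). The young libraries held 12, 24, 42 and 49 reads of Sirt5. The exon length behind its deposited values was 1367 bases, against 6093 bases in GENCODE M21. Sirt4 had 2.25, 2.82, 2.12 and 2.598 RPKM in the old libraries, against 2.27, 1.5997, 2.91 and 2.42 RPKM in the young libraries. The ranges overlapped fully on this scale. Sirt4 had 0.07 ± 0.16 as deposited (adjusted p = 0.719) and -0.41 ± 0.13 by library total (adjusted p = 0.0410), a call lost without any of old libraries 1, 2, 3 or 4 or young libraries 1, 3 or 4 (highest adjusted p = 0.0998, without young library 3). The call of Sirt4 was also lost after thinning (limma, adjusted p = 0.745) and with silent receptor genes subtracted (adjusted p = 0.370). Sirt1 had 0.59 ± 0.19 as deposited (adjusted p = 0.00907), and Sirt7 had 0.59 ± 0.19 as deposited (adjusted p = 0.0247), a call lost without any of old libraries 1 or 4 or young libraries 2 or 4 (highest adjusted p = 0.0786, without old library 4). On library totals these 2 had log2 fold changes of 0.01 and 0.12 and were not called. The mitochondrial deacetylase Sirt3 was called on neither scale (-0.05 and -0.47).

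DNA methyltransferases were not called on library totals. Dnmt1, which copies methylation to the new strand after replication, had 7.96, 7.51, 8.61 and 8.76 RPKM in the old libraries, against 6.24, 4.03, 8.59 and 4.86 RPKM in the young libraries. Young library 3 lay inside the old range. Dnmt1 had 0.45 ± 0.19 as deposited (adjusted p = 0.0429) and -0.15 ± 0.17 by library total (adjusted p = 0.552), and the call on the deposited scale was lost without any of old libraries 1, 2, 3 or 4 or young libraries 1, 2 or 4 (highest adjusted p = 0.131, without young library 2). The 12 genes of S phase and mitosis summed to 124 to 180 RPKM in old and 68.8 to 109 RPKM in young libraries as deposited, and to 105 to 122 RPKM in old and 113 to 124 RPKM in young libraries on library totals, where 2 of the 8 tested were lower and 0 higher. The sums hide opposite directions among these genes. As deposited, Pcna, Mcm3, Mcm4, Mcm5, Mcm6 and Mcm7 had higher means in old, and Mcm2, Mki67, Top2a, Cdk1, Ccna2 and Ccnb1 lower means. Pcna averaged 62.6 RPKM in old and 31.5 RPKM in young libraries. Top2a averaged 0.378 RPKM in old and 1.66 RPKM in young libraries, and Mki67 0.233 and 0.744 RPKM. The part of dividing cells in the values of Dnmt1 was not tested. Dnmt3a, which sets methylation at new sites, had 2.75, 1.99, 2.76 and 3.01 RPKM in the old libraries, against 2.601, 1.96, 2.14 and 1.76 RPKM in the young libraries. The groups overlapped, and Dnmt3a had 0.22 ± 0.15 as deposited (adjusted p = 0.251) and -0.27 ± 0.18 by library total (adjusted p = 0.276). Dnmt3b averaged 1.34 ± 0.484 RPKM in the old libraries and 0.745 ± 0.145 RPKM in the young libraries (SD, n = 4 each) and was not called (0.41 and 0.06 on the deposited scale and library totals).

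Of the TET dioxygenases, which oxidise 5-methylcytosine as a step towards its removal, Tet2 made up most of the class by summed RPKM and took a smaller share of reads in old cells. Tet2 (GRCm38 chromosome 3, 133463679 to 133545139, minus strand) had 12.3, 11.01, 9.84 and 11.6 RPKM in the old libraries, against 13.3, 9.91, 12.3 and 9.32 RPKM in the young libraries. The groups overlapped on the deposited scale, where their means were close. As a share of reads Tet2 had 10.5, 7.46, 8.21 and 9.24 RPKM in the old libraries, against 16.3, 16.2, 14.01 and 10.7 RPKM in the young libraries, with all old libraries below all young ones. Limma gave Tet2 0.01 ± 0.18 as deposited (adjusted p = 0.973) and -0.63 ± 0.15 by library total (adjusted p = 0.0131). The call on library totals held with each library left out in turn (highest adjusted p = 0.0419), and without young libraries 1 and 2 together the log2 fold change was -0.44 and the adjusted p 0.106. Tet3 had 1.99, 1.62, 1.51 and 1.899 RPKM in the old libraries, against 1.904, 1.84, 1.48 and 1.37 RPKM in the young libraries. Its ranges overlapped, and Tet3 had 0.06 ± 0.15 as deposited (adjusted p = 0.764) and -0.38 ± 0.18 by library total (adjusted p = 0.136).

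SWI/SNF complexes hold either of the ATPases Smarca2 (BRM) and Smarca4 (BRG1) with shared subunits. Of 10 tested members 6 were higher on the deposited scale and 2, Smarcb1 and Smarca2, were lower on library totals. Smarce1 (BAF57) had 12.2, 20.5, 16.6 and 20.03 RPKM in the old libraries, against 11.7, 6.54, 12.6 and 14.3 RPKM in the young libraries. Young library 2 was lowest, and old library 1 lay inside the young range. Smarce1 had 0.60 ± 0.22 as deposited (adjusted p = 0.0183) and -0.04 ± 0.16 by library total (adjusted p = 0.878), and the call was lost without any of old libraries 2 or 4 or young library 2 (highest adjusted p = 0.0679, without young library 2). Smarcb1 (BAF47), a core subunit, had 7.72, 10.6, 9.03 and 9.703 RPKM in the old libraries, against 7.98, 5.603, 9.45 and 9.54 RPKM in the young libraries. The groups overlapped here and separated on library totals, with old lower. Smarcb1 had 0.18 ± 0.19 as deposited (adjusted p = 0.382) and -0.44 ± 0.12 by library total (adjusted p = 0.0184), a call lost without old library 1 or young libraries 3 or 4 (highest adjusted p = 0.0551, without young library 4). Smarca2 had 5.58, 5.05, 4.96 and 6.36 RPKM in the old libraries, against 5.13, 4.46, 6.65 and 4.54 RPKM in the young libraries, with young library 3 the highest of all. Limma gave Smarca2 0.08 ± 0.18 as deposited (adjusted p = 0.716) and -0.51 ± 0.16 by library total (adjusted p = 0.0382), a call lost without any of old libraries 1, 2 or 3 or young libraries 1, 2 or 3 (highest adjusted p = 0.104, without young library 3). Smarca4 stood higher on the deposited scale (0.52 ± 0.18 as deposited (adjusted p = 0.0143)), a call lost without old library 4 (adjusted p = 0.0622), and had -0.11 on library totals. The DNA-binding subunits Arid1a and Arid1b had 0.41 and 0.45 on the deposited scale, both called higher, and -0.20 and -0.12 on library totals, not called. The call of Arid1a was lost without any of old libraries 1, 2, 3 or 4 or young libraries 1, 2 or 4 (highest adjusted p = 0.113, without old library 4). Smarcc2 and Smarcd2 were the other members called higher on the deposited scale (0.41 and 0.65), with calls lost without any of old libraries 1, 3 or 4 or young libraries 1, 2 or 4 (highest adjusted p = 0.128, without young library 4) and without old library 4 (adjusted p = 0.0583). Smarcc1 (0.32) and Smarcd1 (0.06) were not called on that scale or on library totals (-0.22 and -0.43).

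Among the other SNF2 ATPases, Smarca5 (SNF2H) and Smarca1 (SNF2L), the motors of ISWI complexes that space nucleosomes, were higher on the deposited scale, and Smarcal1 was lower on library totals. Smarca5 had 18.99, 22.9, 13.8 and 20.7 RPKM in the old libraries, against 10.3, 11.7, 8.36 and 11.9 RPKM in the young libraries. All old libraries were above all young ones. Smarca5 had a log2 fold change of 0.79 ± 0.19 as deposited (adjusted p = 0.00138) and 0.14 ± 0.19 by library total (adjusted p = 0.633). Smarca1 had 0.67 and 0.14, with the same calls. Smarcal1, which remodels stalled replication forks, had 1.49, 1.23, 1.63 and 1.11 RPKM in the old libraries, against 2.54, 0.893, 2.37 and 2.58 RPKM in the young libraries. The other 3 young libraries were above all old ones, and young library 2 was below them. Smarcal1 had -0.35 ± 0.21 as deposited (adjusted p = 0.182) and -0.75 ± 0.20 by library total (adjusted p = 0.0185). Its call on library totals was lost without any of old libraries 2 or 4 (highest adjusted p = 0.0563, without old library 2), and on the deposited scale Smarcal1 was called lower only without young library 2 (adjusted p = 0.00798). Smarcad1 had 1.77, 2.48, 1.88 and 2.26 RPKM in the old libraries, against 1.64, 2.38, 1.79 and 2.15 RPKM in the young libraries. The ranges overlapped on this scale, and on library totals all old libraries were below all young ones. Smarcad1 was not called, with 0.05 ± 0.15 as deposited (adjusted p = 0.791) and -0.42 ± 0.18 by library total (adjusted p = 0.0966).

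**Figure D3:**
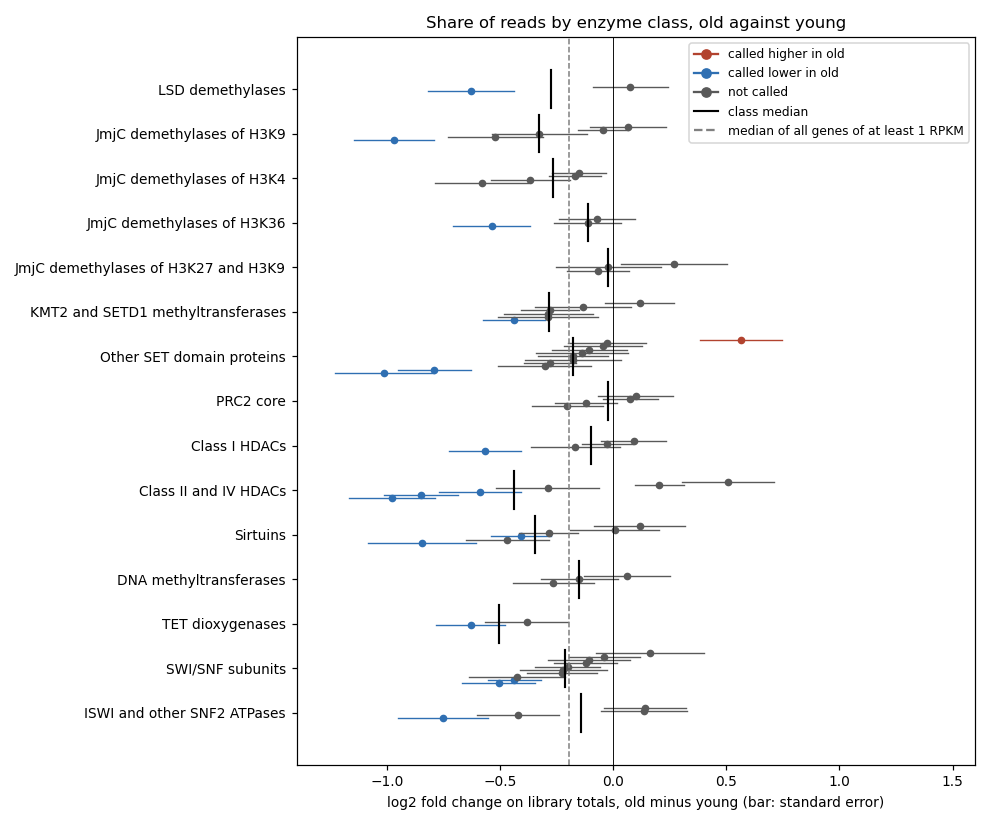
Log2 fold change on library totals, old minus young, of the 73 tested members by enzyme class, with the standard error as a bar and the class median as a black line. The dashed line is the median of all 11096 genes at -0.19. The only member called higher is Setd6, in the class of other SET domain proteins, and the Jumonji demethylases of H3K4, the erasers of H3K27 and H3K9 methylation, PRC2 and the DNA methyltransferases hold no call.

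The 9 members with a mean under 1 RPKM were not tested. Tet1 had 0.219, 0.194, 0.214 and 0.127 RPKM in the old libraries, against 0.803, 1.52, 0.621 and 1.01 RPKM in the young libraries, and the DNA methyltransferase cofactor Dnmt3l had 0.0351, 0.119, 0.0701 and 0.142 RPKM in the old libraries, against 0.810, 1.07, 0.674 and 0.919 RPKM in the young libraries. Both stood higher in every young library, and so did Hdac9, which averaged 0.159 ± 0.0409 RPKM in the old libraries and 0.609 ± 0.307 RPKM in the young libraries (SD, n = 4 each). These differences stand beside the mean of 0.185 to 0.609 RPKM in young libraries of the silent receptor genes, against 0.0414 to 0.0613 RPKM in old libraries. Smarca5-ps had 3, 3, 4 and 2 reads in the old libraries, against 6, 11, 0 and 16 reads in the young libraries, and its reads cannot be told apart with certainty from those of Smarca5, of which it is a copy. Its deposited values were 0.0547, 0.0553, 0.0652 and 0.0376 RPKM in the old libraries, against 0.565, 1.09, 0.0188 and 0.758 RPKM in the young libraries, where the value of young library 3 replaces a count of 0. Dnmt3aos held at most 5 reads in a library and Kdm4d at most 11. Setd1a averaged 0.973 ± 0.326 RPKM in the old libraries and 0.679 ± 0.328 RPKM in the young libraries, Sirt6 0.658 ± 0.255 RPKM in the old libraries and 1.01 ± 0.471 RPKM in the young libraries and Smarcd3, a partner of MyoD in mouse myoblasts, 0.307 ± 0.158 RPKM in the old libraries and 0.401 ± 0.0678 RPKM in the young libraries (SD, n = 4 each). Of the exon bases of Setd1a and Smarcd3 52.3% and 48.2% overlap other genes.

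Ratios between related members within a library do not depend on the scaling of the library, apart from the pseudocount. For 24 pairs of related members, log2 ratios of (RPKM + 1) were compared between old and young libraries in an exact permutation test, two-sided, that enumerates the 70 assignments of libraries. The groups did not overlap for 6 pairs, 1 with the ratio higher and 5 with the ratio lower in old libraries. Each of these had p = 0.0286, the smallest that 4 against 4 libraries can give in the exact test, and an adjusted p over the 24 pairs of 0.114, so that 0 pairs passed 0.05 after adjustment. How often the ratios of other gene pairs separate is not given here, so the count of 6 has no background. Of all 11096 single genes, 24.8% separated with old lower and 7.84% with old higher on library totals. Hdac7 over Hdac4 averaged -4.40 ± 0.42 in old and -3.02 ± 0.61 in young libraries. Kmt5c over Kmt5b averaged -1.90 ± 0.20 in old and -0.80 ± 0.53 in young libraries. Within these 2 pairs the less abundant enzyme was thus further below its partner in each old library than in any young library. Setdb2 over Setdb1 averaged -1.52 ± 0.34 in old and -0.65 ± 0.35 in young libraries, and Hdac8 over Hdac3 -2.76 ± 0.04 and -2.03 ± 0.13. Smarcd2 over Smarcd1, alternative subunits of SWI/SNF, averaged 0.22 ± 0.15 in old and -0.36 ± 0.31 in young libraries, the pair with the higher ratio in old animals (SD, n = 4 each). Tet1 over Tet2 holds a member under 1 RPKM. In the 5 pairs with a lower ratio in old libraries the weaker member averaged 0.588 to 2.09 RPKM. The silent receptor genes averaged 0.0536 RPKM in old and 0.362 RPKM in young libraries. With that level subtracted, Hdac7, Kmt5c and Hdac8 lost their calls on library totals (limma, adjusted p = 0.177, 0.0583 and 0.213). Setdb2 kept its call (adjusted p = 0.0232). The part of the low-level signal and of the added 1 in these ratios was not tested. The ratio of Smarca2 to Smarca4, the alternative ATPases, averaged -0.96 ± 0.17 in old and -0.52 ± 0.18 in young libraries and overlapped (exact p = 0.0571, adjusted over the pairs 0.171). Without young libraries 1 and 2, 10 pairs did not overlap, and leaving libraries out can only keep or raise this count.

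**Figure D4:**
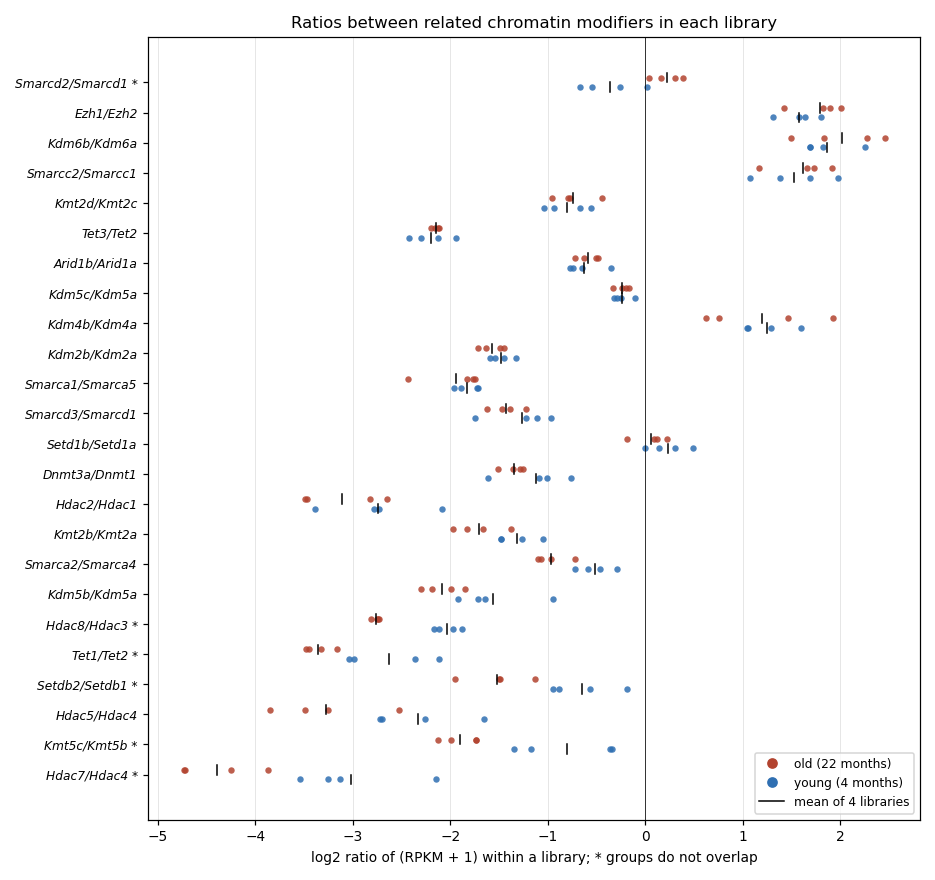
Log2 ratio of (RPKM + 1) of 24 pairs of related members within each library, with red points for the 4 old and blue points for the 4 young libraries and a black bar for each mean. An asterisk marks the 6 pairs whose groups do not overlap. The ratios of Hdac7 to Hdac4 and of Kmt5c to Kmt5b are the lowest in old libraries relative to young.

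Calls among the members followed their level, as they did for all genes. Of the 13 members with a mean of 1 to 2 RPKM, 5 were lower on library totals, and of the 26 at 2 to 5 RPKM 7 were lower, where 37.3% and 27.6% of all genes at those levels were. At 5 to 10 RPKM 3 of 17 members were lower, beside 18.7% of all genes. At 10 RPKM or more 1 of 17 members was lower and 0 were higher, beside 10.5% and 16.6% of all genes. The members' transcripts were long, with a median of 6678 exon bases against 3888 for all genes tested. Across the 73 members Spearman's rho between length and log2 fold change on library totals was 0.04, and across all 11096 genes it was 0.08, over genes that share the same 8 libraries. Young library 2 was the lowest of the 8 for 32 members on the deposited scale (43.8%, and 46.7% of all genes). On library totals old library 2 was the lowest for 34 members (46.6%, and 35.2% of all genes). With the mean level of the silent receptor genes subtracted from each library, 5 members remained lower on library totals, Kdm4c, Setdb2, Hdac10, Sirt5 and Tet2, and Setd6 remained higher. With reads thinned to equal totals 8 members remained lower in the wider fit, Kdm4c, Kmt2c, Kmt5c, Hdac8, Hdac10, Hdac11, Tet2 and Smarcb1. The shares of all genes called after subtraction or thinning are not given here.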

How the data were processed

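RNA of sorted muscle stem cells from 4 old and 4 young mice was primed with oligo(dT), made into cDNA with the SMARTer system and sequenced in paired reads, per the labels' protocols. The authors deposited RPKM per gene, made with Trim Galore, STAR, featureCounts, Subread and edgeR on mm10 (GRCm38), per the submitters' processing notes. Their versions, settings and gene models are not given here in any source used. In 100% of the genes with reads dividing the deposited RPKM by what 1 read is worth gave whole numbers (tolerance 0.03), and these reads were used. Zeros had been given a small value in 8293 genes. Each replicate is a separate animal.

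The symbol rule for the members used no measured value, but the rule and the lists were set with earlier results of these data known. Old and young libraries were compared with limma-trend without covariates on log2(RPKM + 1), over all genes averaging at least 5 RPKM, and again at least 1 RPKM, at a Benjamini-Hochberg adjusted p of 0.05 (limma 3.58.1, R 4.3.3). Both fits were run on the deposited values and on values divided by each library's reads in genes. Related members were compared within libraries by log2 ratios and an exact permutation test. In each class the member with the highest mean and up to 2 members with the smallest adjusted p on library totals are given in every library. Overlaps and coordinates come from GENCODE M21 on GRCm38, in which all 82 members were found, and promoters from RefSeq on GRCm38.p6. In GENCODE 35 members share exon bases with another gene, 7 of them over 10%. The alternatives were another pseudocount, other filters, thinned reads, each library left out in turn, a replicate block, no variance trend and, chosen after seeing the data, limma-voom on the recovered reads and subtraction of the level of silent receptor genes. The model was tested on simulated reads. Of models for counts, limma-voom alone was run, on the recovered reads, since the deposited unit is RPKM.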

Additional observations from a re-analysis of the deposited data

Results flagged for a closer look

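A library far from the other 3 of its group was looked for in 146 groups of 4 libraries, each of the 73 tested members in old and in young animals. It was found in 2 of them. Chance alone marks about 1 in 20 groups. Kmt5b, which dimethylates H4K20, had 5.58 RPKM in old library 3 and 7.13 to 7.42 RPKM in the other 3 old libraries, so the gap was 0.845 of the range, above the limit of Dixon's test for 4 values. Smarcal1, the remodeller of stalled replication forks, had 0.893 RPKM in young library 2 and 2.37 to 2.58 RPKM in the other 3 young libraries, a gap of 0.873 of the range. Young library 2 had the fewest reads of the 8.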

How the results depend on the processing

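Of the 34 members averaging at least 5 RPKM, 26 were called on the deposited scale, and 4 were on library totals. Without young libraries 1 and 2 the count on the deposited scale was 15, and at a mean of at least 10 RPKM it was 13 of 17. With each library left out in turn it ranged from 15 to 27. On library totals the count without a filter was 22 (2 higher and 20 lower), out of all 82 members and not the 34. These 22 include Tet1, Dnmt3l and Hdac9, which averaged under 1 RPKM. The count on library totals was 1 at a mean of at least 10 RPKM, 1 with the level of silent receptor genes subtracted, and 1 to 4 with each library left out. Of the 73 members averaging at least 1 RPKM, 31 were called on the deposited scale, 19 without young libraries 1 and 2 and 18 to 33 with each library left out. On library totals 17 were called, 8 with reads thinned to equal totals, 6 with silent receptor genes subtracted and 7 to 18 with each library left out. For the counts above the cause was not tested. Shares of all genes called under these alternatives are not given here. A change in the members' counts can therefore not be set beside that of all genes. Without young libraries 1 and 2, 10 pairs did not overlap, against 6, and 6 to 8 with each library left out, where fewer libraries can only keep or raise the count. No called value changed sign under any of these. Same-numbered old and young libraries deviated with correlations of -0.167, -0.0887, 0.385 and -0.244, and differently numbered ones with -0.396 to 0.418. These values show no pairing by number, and so few cannot exclude one. With a replicate block 22, 3, 27 and 10 members were called in the 4 fits. The DESeq2 and edgeR alternatives were not run, and limma-voom was the model run on the recovered reads. The young libraries, at 1.91 to 6.56 M reads in genes, limit what can be seen below about 1 RPKM.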

Other observations

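Partners of these enzymes that the symbol rule leaves out were listed by complex, 120 genes of which 106 were tested at a mean of at least 1 RPKM. On the deposited scale 62 were higher and 5 lower in old animals, and on library totals 6 were higher and 18 lower, with medians of 0.56 and -0.04. Of all genes in the same fits 42.1% were higher and 5.34% lower on the deposited scale, and 7.27% higher and 22.3% lower on library totals. Both counts on library totals lie below those shares. On the deposited scale the count of higher partners lies above its share and that of lower partners slightly below. The partners were not matched to all genes by level. The 6 that took a larger share of reads were Wdr5, the shared scaffold of H3K4 methyltransferase complexes, Mbd3, a subunit of NuRD, the remodeller Chd1, the polycomb subunit Pcgf5, and Ruvbl1 and Ruvbl2, the AAA+ ATPases of INO80 and SRCAP. Ruvbl1 averaged 67.5 RPKM in the old libraries and 23.3 RPKM in the young libraries, and its log2 fold change by library total was 0.82 (limma, adjusted p = 0.00942). Wdr5 averaged 36.5 RPKM in the old and 13.9 RPKM in the young libraries, with 0.65 (adjusted p = 0.0102), and Mbd3 27.1 RPKM in the old and 9.86 RPKM in the young, with 0.73 (adjusted p = 0.00687).

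Of the 13 tested methyltransferases outside the rule 3 were lower on library totals and 0 higher, the H3K9 methyltransferases Ehmt1 and Ehmt2 and the H3K36 methyltransferase Nsd1. That count is near the background of 22.3% lower. Ehmt1 averaged 3.81 RPKM in the old and 5.15 RPKM in the young libraries, a log2 fold change of -0.91 (adjusted p = 0.00284). Uhrf1, which guides Dnmt1 to replicated DNA, averaged 0.751 RPKM in the old and 1.94 RPKM in the young libraries, with -1.12 (adjusted p = 0.00517). The 3 BET proteins were not called on library totals, with a median of 0.19, and neither was any tested PRC2 accessory subunit (6 genes, median 0.09). The share of all reads taken by the 82 members was 0.374 to 0.466% in old and 0.425 to 0.501% in young libraries.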
